A study of Saccharomyces cerevisiae with 2 samples.

Results

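Cytochrome c oxidase, complex IV of the respiratory chain, passes electrons from cytochrome c to oxygen in the inner mitochondrial membrane. In budding yeast its catalytic core is encoded by mitochondrial DNA, and a set of smaller subunits around the core is encoded in the nucleus and imported. The mRNAs of nuclear-encoded mitochondrial proteins carry 3' untranslated regions that RNA-binding proteins such as Puf3 are known to bind, so the place where the poly(A) tail is added sets which of these sequences an mRNA holds. The genes described here are 9 nuclear genes for structural subunits, COX4, COX5A, COX5B, COX6, COX7, COX8, COX9, COX12 and COX13, taken by name among the open reading frames (ORFs) of the tables. All 9 were found among 5798 ORFs, and all 9 had at least 100 reads after the stop codon in each replicate, as did 4939 ORFs in all.

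The cells were Saccharomyces cerevisiae strain JZY65 (genotype Δrpb4), which lacks the coding sequence of RPB4. Rpb4 belongs to RNA polymerase II, the enzyme that makes mRNA. They were grown to mid-log phase in YPD, a rich medium with glucose, at 30 °C. There were 2 biological replicates in 1 group per the labels, and both carry the deletion. Cells with RPB4 were not analysed here, so the deletion's effect on these genes cannot be given, and differences are between genes or between the replicates.

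In 3' READS, each sequencing read ends where a poly(A) tail was added, so a read is a 3' end and not a piece of coverage. Reads were counted at each of the 400 nt after the stop codon, called the window below. ORF windows held 27375875 reads in replicate 1 and 24905701 in replicate 2. The RPB4 coding sequence held 0 reads in both replicates, beside 4486 and 4066 in its window, which allows shares of up to 0.0669% and 0.0738%. Since poly(A) reads are few inside most coding sequences, this does not check the deletion. Reads were counted without molecular identifiers, so every interval and limit given here covers counting error only. Levels are reads per 1000000 ORF window reads (RPM), over windows of the same length for every gene. In a bulk culture a lower level can come from fewer cells with the mRNA or less mRNA per cell, which cannot be told apart.

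The COX mRNAs had long 3' untranslated regions. The mean endpoint of a gene is the read-weighted mean position of its poly(A) sites, in nt after the stop codon. Over the 9 genes the median mean endpoint was 235 and 229.8 nt in replicates 1 and 2, against 122 and 124 nt over the 4939 ORFs. In 8 of the 9 genes it lay beyond the median of all ORFs in both replicates, which held for 48.6% of ORFs. COX5B, an isoform gene, was the exception. COX6 was among the 8 by its mean of 163 nt. Its most used position, which was also its median position, was 117 nt in both replicates, short of the medians of all ORFs. In 6 genes (COX4, COX5A, COX8, COX9, COX12 and COX13) it lay beyond 200 nt in both replicates, against 15.5% of ORFs. With genes weighted equally, the stretch from 201 to 300 nt held 54.3% and 52.2% of the COX reads, against 13.1% and 13.3% of the reads of all ORFs. The first 100 nt held 10.8% in each replicate, against 37.8% and 37.3%. No test was made of the list, and genes of 1 strain are not replicates.

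**Figure D1:**
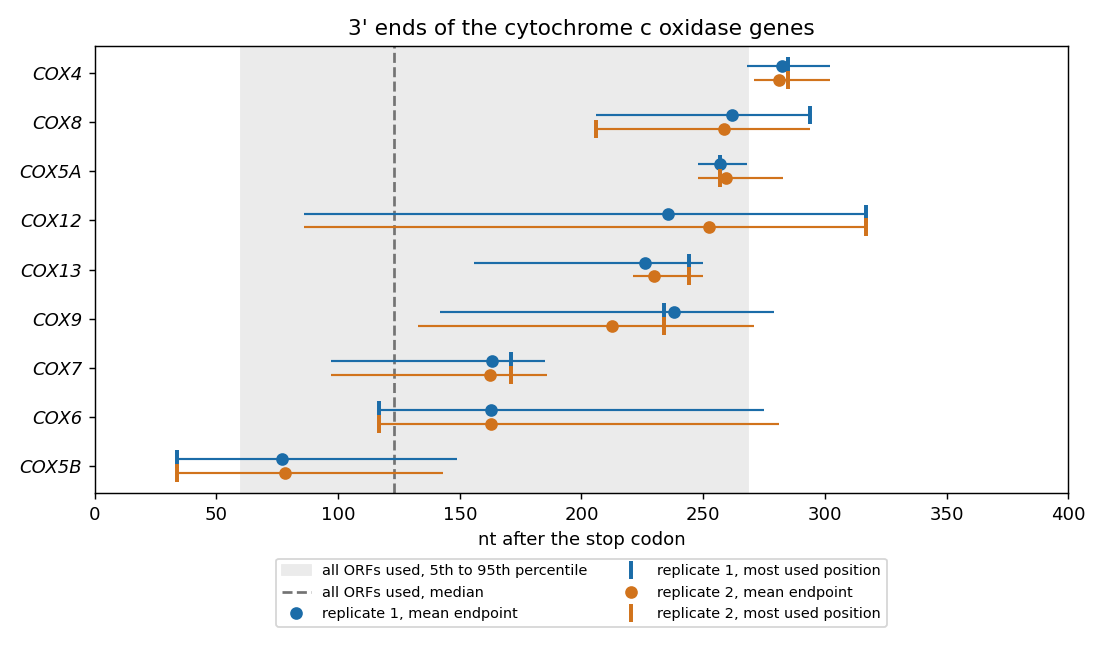
Mean endpoint (points), most used poly(A) position (ticks) and the 10th to 90th percentile of reads (horizontal lines) of each COX gene in replicates 1 and 2, in nt after the stop codon. The dashed line is the median mean endpoint of the 4939 ORFs used, 123 nt, and the grey band spans their 5th to 95th percentile, from 60.0 to 269 nt. By mean endpoint, COX4 lies beyond the band and COX5B is the one gene left of the dashed line.

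The reading frames of these genes are short. Their annotated spans ran from 180 nt (COX9) to 544 nt (COX5B, whose gene holds an intron), with a median of 390.0 nt against 1272 nt over all ORFs used. In COX8 and COX9 the mean endpoint was longer than the annotated span in both replicates, at 109.8% and 125% of it, which was the case for 0.891% of ORFs. COX12 came close, at 96.7%. By mean endpoint the 3' untranslated region was thus longer than the coding sequence in COX8 and COX9 and nearly as long in COX12. A mean endpoint cannot lie past the end of the window, so no ORF at least as long as the window could be among the 0.891%. The median span of all ORFs used, 1272 nt, is longer than the window. The 0.891% therefore depends on frame length and does not show how rare such long 3' untranslated regions are. The COX12 mean lay between its most used position, 317 nt, and weaker sites nearer the stop codon.

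COX5A and COX5B encode alternative isoforms of subunit V, of which the COX5A product is known as the form of aerobic cells and the COX5B product as the form of low oxygen. The windows of COX5A (YNL052W, chromosome XIV, 531725 to 532186, plus strand) held 1551 and 1190 reads. Those of COX5B (YIL111W, chromosome IX, 155222 to 155765, plus strand) held 747 and 952. COX5A had the more reads in both replicates, 2.08 and 1.25 times as many, or 1.66 ± 0.584 (SD, n = 2). The level was higher in replicate 1 for COX5A and in replicate 2 for COX5B, with 56.7 and 47.8 RPM for COX5A and 27.3 and 38.2 RPM for COX5B.

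The isoform genes ended their mRNAs far apart. COX5A had a mean endpoint of 257 and 259 nt, 258 ± 1.74 (SD, n = 2), and COX5B of 77.0 and 78.2 nt, 77.6 ± 0.893. The gap of the means was many times the spread between replicates. COX5A concentrated its reads in a band from 246 to 268 nt, with 86.1% and 79.5% of them, led by position 257 (chromosome XIV, 532443). COX5B ended most often at 34 nt (chromosome IX, 155799), with 364 of 747 reads in replicate 1 and 367 of 952 in replicate 2. These are 48.7% (Wilson 95% interval 45.2 to 52.3) and 38.6% (35.5 to 41.7), so the share differed by more than counting error. Further sites included those at 104 to 109, 126 and 143 to 149 nt, the last with 17.5% and 12.6%, and other reads were scattered between them. The coding sequence of the downstream gene HPM1, a protein histidine methyltransferase, begins 280 nt after COX5B on the same strand, and 0 and 7 reads of the COX5B window lay in it.

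COX4 encodes subunit IV, a zinc-binding subunit on the matrix side. Its window (YGL187C, chromosome VII, 149704 to 150171, minus strand) held 1632 and 1602 reads, and its mean endpoint was 283 and 281 nt, the longest of the family at 282 ± 0.982 (SD, n = 2). The replicate ranges of COX4 and of COX8, next in order, were apart. It was beyond 96.0% of ORFs. Position 285 (chromosome VII, 149419) took 44.7% and 41.6% of the reads, and the band from 268 to 290 nt took 83.0% and 82.8%. The share of the band was alike in the replicates, while within it the reads at 283 nt made up 8.39% in replicate 1 and 14.5% in replicate 2. A reading frame annotated as dubious, YGL188C, begins 188 nt after COX4 on the same strand, and 99.2% and 98.5% of the window reads lay at or past its start. Reads of COX4 and of any transcript from there cannot be told apart.

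COX6 encodes subunit VI, on the matrix side of the complex. It had the fewest window reads of the 9, with 321 and 315, or 11.7 and 12.6 RPM (YHR051W, chromosome VIII, 209705 to 210151, plus strand). Both values lay near the 11th percentile of all ORFs, at 10.7 and 11.5. COX6 was also the most concentrated, and of the 9 genes its mean endpoint differed least between the replicates. Position 117 (chromosome VIII, 210268) took 184 reads (57.3%, interval 51.9 to 62.6) and 186 reads (59.0%, 53.5 to 64.3). More than 50% at a single position in both replicates was found in 16.4% of ORFs and in no other COX gene. A distal pair of sites at 275 and 289 nt followed, with 16.8% and 5.61% of the reads in replicate 1 and 14.3% and 7.62% in replicate 2. The mean endpoint, 163 nt in both replicates, thus lay between the proximal and the distal sites and marked neither of them.

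COX7 encodes subunit VII, a small membrane-spanning subunit. Its window (YMR256C, chromosome XIII, 778945 to 779127, minus strand) held 1587 and 1486 reads, and its mean endpoint was 163 and 162 nt, 162.8 ± 0.551 (SD, n = 2). The replicate ranges of COX6 and COX7 overlapped, but the genes differed in form. COX7 placed 79.7% and 75.2% of its reads between 162 and 186 nt, with position 171 (chromosome XIII, 778774) at 28.0% and 26.2% and position 167 at 20.4% and 19.3%. A minor site from 97 to 101 nt took 7.75% (interval 6.53 to 9.17) and 11.7% (10.2 to 13.4). GFD1, linked to mRNA export, is transcribed towards COX7 from the other strand and stops 378 nt away. Its most used position, with 28.1% and 29.7% of its reads, faces position 255 of the COX7 window, and 24 and 2 COX7 reads reached that far. The mean endpoint of GFD1 lay further in, at 191 and 185 nt after its own stop codon, so part of its ends came nearer to those of COX7.

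**Figure D2:**
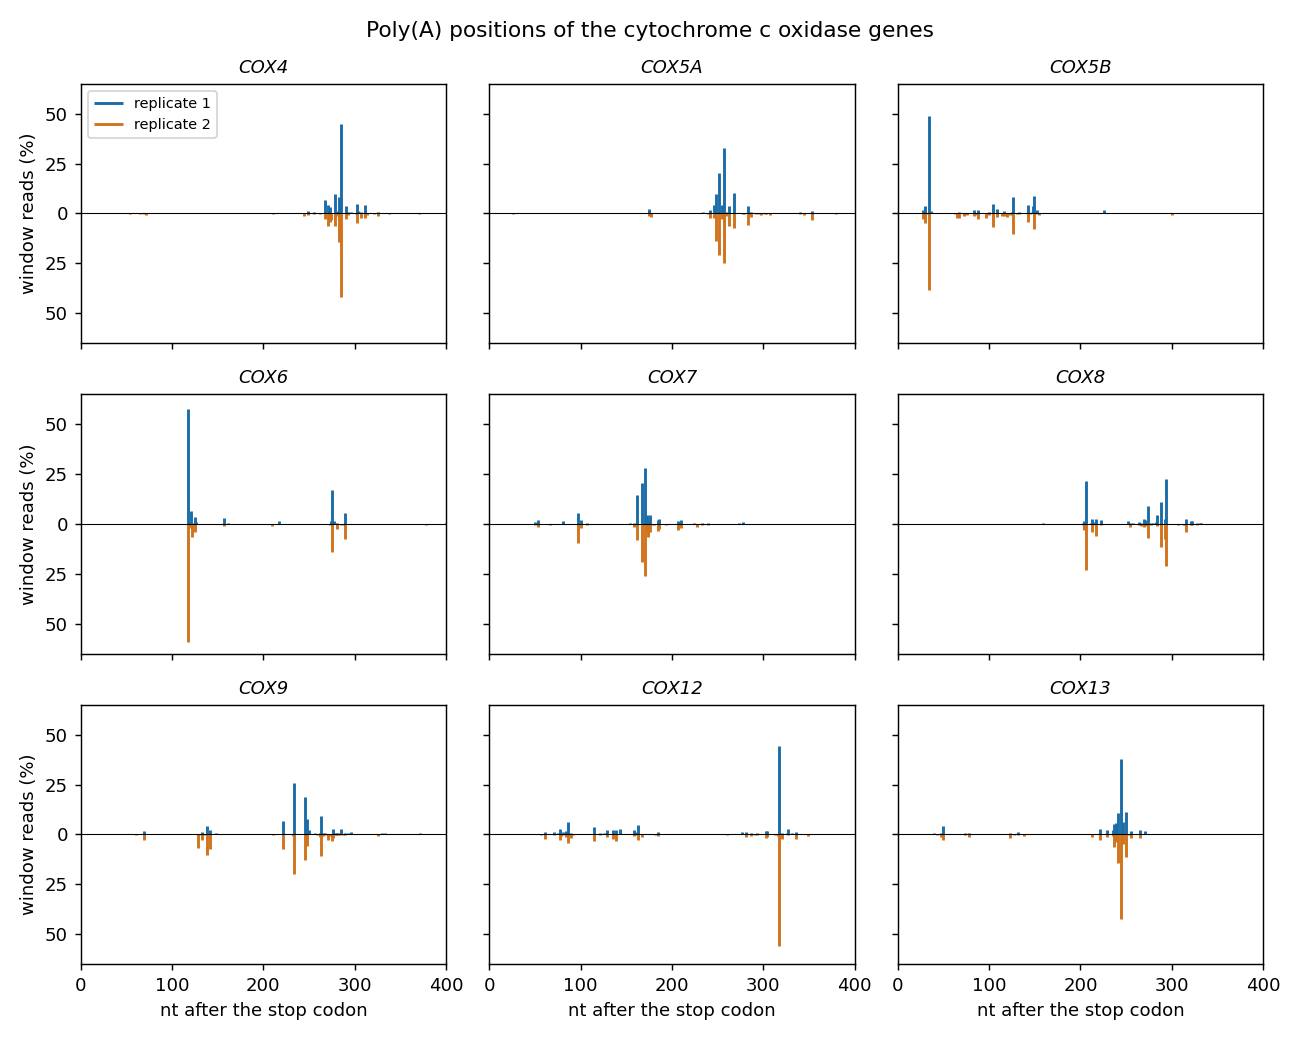
Share of each COX gene's window reads (vertical axis, %) at each position from 1 to 400 nt after the stop codon (horizontal axis), with replicate 1 upward and replicate 2 downward. COX4, COX5A, COX7 and COX13 had most of their reads in a narrow band. COX6 and COX8 had a proximal and a distal set of sites, and COX5B, COX9 and COX12 several sites spread over more than 100 nt.

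COX8 encodes subunit VIII, also a small membrane-spanning subunit, and had the most reads of the family. Its window (YLR395C, chromosome XII, 909729 to 909965, minus strand) held 1891 and 1960 reads, or 69.1 and 78.7 RPM. Its reads fell into a proximal set of sites from 204 to 217 nt and a distal set from 274 to 294 nt. The proximal set took 29.7% (interval 27.7 to 31.8) in replicate 1 and 37.1% (35.0 to 39.3) in replicate 2, and the distal set 51.1% (48.9 to 53.4) and 48.9% (46.7 to 51.1). The most used position was 294 nt (chromosome XII, 909435) in replicate 1, with 425 reads against 402 at 206 nt. In replicate 2 it was 206 nt (chromosome XII, 909523), with 456 reads against 412 at 294 nt. The leading position thus differed although both sites had similar shares in each replicate. The other 8 genes had the same most used position in both replicates, which 83.8% of ORFs did. A distance of up to 5 nt between the replicates' most used positions was found in 87.6% of ORFs and in the same 8 genes.

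CST9, a meiotic gene, faces COX8 from the other strand and stops 331 nt away. Its most used position, 86 nt after its own stop codon in both replicates, lies opposite position 245 of the COX8 window. At or past that position lay 67.4% (interval 65.2 to 69.4) and 61.6% (59.5 to 63.8) of the COX8 reads. Most COX8 reads thus ended at or past the most used position of the facing gene, which held 24.9% and 24.6% of the CST9 reads. The COX8 mean endpoint was 262 and 258 nt, 260.2 ± 2.55 (SD, n = 2), which overlaps the range of COX5A.

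COX9 encodes subunit VIIa and has the shortest frame of the 9 genes. Its window (YDL067C, chromosome IV, 334217 to 334396, minus strand) held 613 and 557 reads, which came to 22.4 RPM in both replicates. The level was steady, but the 3' ends were not. The mean endpoint was 238 nt in the first replicate and 213 nt in the other, and this difference of 25.3 nt was larger than in 98.7% of ORFs. It went with the sites from 129 to 142 nt, which took 52 reads (8.48%, interval 6.53 to 10.96) in replicate 1 and 152 reads (27.3%, 23.8 to 31.1) in replicate 2. The sites at 246 and 248 nt together took 26.4% in replicate 1 and 18.3% in replicate 2, and position 234 (chromosome IV, 333983) took 25.9% and 19.6%. COX9 had no dominant site, since its reads were spread as evenly as over 13.6 and 13.8 equally used positions. The median over all ORFs was 8.46. This measure, called the effective number, is e raised to the entropy of the shares. The entropy is the negative sum of each share times its natural logarithm.

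COX12 encodes subunit VIb, on the intermembrane-space side. Its window (YLR038C, chromosome XII, 224921 to 225172, minus strand) held 971 and 926 reads. The most used position, 317 nt (chromosome XII, 224604), was the most distal leading site of the family and took 432 reads (44.5%, interval 41.4 to 47.6) and 518 reads (55.9%, 52.7 to 59.1). A scatter of weaker sites lay far upstream of it, at 78 to 86, 115, 135 to 139 and 163 nt, the first of them with 12.2% and 9.61%. The mean endpoint was 235 and 252 nt, 244 ± 11.9 (SD, n = 2), and lay in a nearly empty stretch between these sites. Its replicate difference of 16.9 nt was larger than in 96.7% of ORFs. A difference over 10 nt was seen in 9.60% of ORFs and among the COX genes in COX9 and COX12. When only the first 300 nt were counted, the COX12 mean endpoint was 131 nt and its level 14.7 instead of 36.3 RPM, because the leading site then lay outside.

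COX13 encodes subunit VIa, known to modulate the activity of the enzyme. Its window (YGL191W, chromosome VII, 144808 to 145197, plus strand) held 1338 and 1058 reads, and its mean endpoint was 226 and 229.8 nt, 228 ± 2.53 (SD, n = 2). It had the form of COX4 and COX5A, a band from 237 to 250 nt with 76.2% (interval 73.9 to 78.4) and 82.5% (80.1 to 84.7) of the reads. Position 244 (chromosome VII, 145441) led it with 37.6% and 42.2%. A proximal site at 49 nt took 4.33% and 2.55%.

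COX12 also had many poly(A) reads inside its coding sequence. There were 607 in replicate 1 and 599 in replicate 2, which is 38.5% (interval 36.1 to 40.9) and 39.3% (36.9 to 41.8) of its ORF and window reads. More than 30% in both replicates was found in 4.09% of ORFs and in no other COX gene. COX13 followed with 75 and 68 reads (5.31% and 6.04%), COX5B had 61 and 20, and COX6 had 21 and 0. COX4, COX5A, COX7, COX8 and COX9 had 5 or fewer in each replicate. The median over the 9 genes was 0.438%, against 1.19% over all ORFs. These shares were not adjusted for length, and the median span was 390 nt for the COX genes and 1272 nt for all ORFs.

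The position of these COX12 reads could be read from the window of the gene upstream. RIC1, which encodes part of an exchange factor for a Golgi GTPase, lies on the same strand, and the COX12 coding sequence begins at position 254 of the RIC1 window. All 607 and all 599 reads lay near the COX12 start codon, between nt 3 and 48 of the coding sequence in replicate 1 and between nt 4 and 37 in replicate 2. Nucleotide 10 (chromosome XII, 225163) held 287 and 365 of them and nucleotide 13 (chromosome XII, 225160) 198 and 125. No read lay in the rest of the COX12 coding sequence in either replicate.

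The same reads made up 42.7% (interval 40.1 to 45.2) and 41.4% (38.9 to 44.0) of the RIC1 window. The most used RIC1 position was 63 nt in replicate 1 and 263 nt, inside COX12, in replicate 2. These reads are therefore counted for both genes, and whether they end RIC1 transcripts or short transcripts of COX12 cannot be told apart. With them included, the COX12 level was 58.2 instead of 36.3 RPM. A like count at COX6 was small and came from replicate 1, where 20 of its 21 ORF reads lay in the first 155 nt of the coding sequence and also in the window of the upstream frame YHR050W-A.

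**Figure D3:**
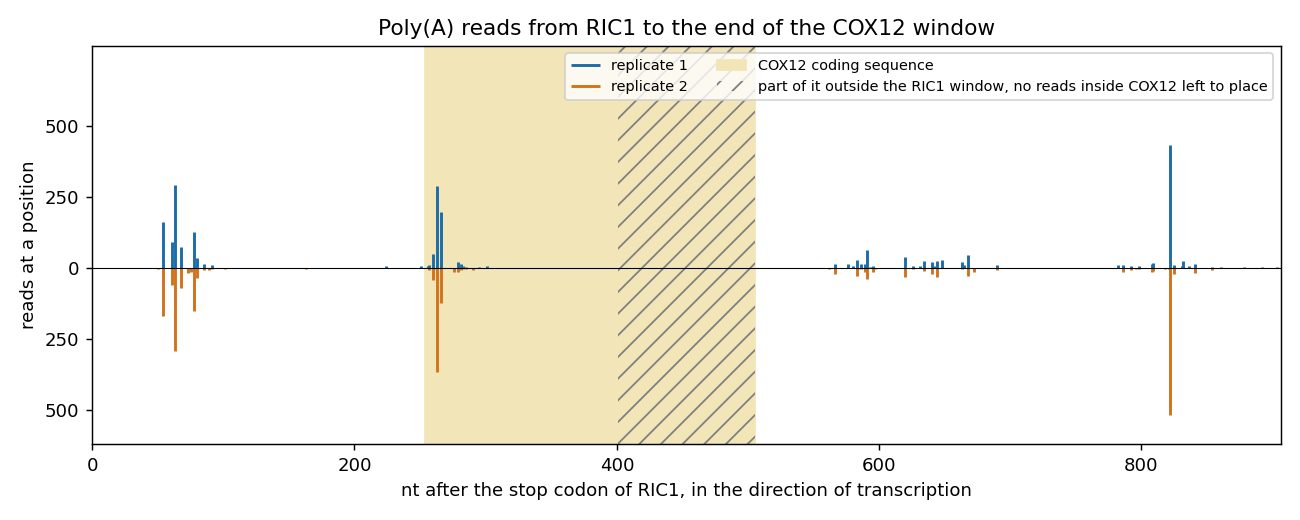
Reads at each position (vertical axis, replicate 1 upward and replicate 2 downward) from the RIC1 stop codon through the COX12 coding sequence (shaded) to 400 nt after it. The reads inside COX12 stand at its start, those of the COX12 window begin after its end, and the hatched stretch lies outside both windows and held no read by the deposited ORF total.

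The level placed COX8 first, followed by COX4, COX7, COX5A, COX13, COX12, COX5B, COX9 and COX6. COX8 had 5.89 and 6.22 times the reads of COX6. The replicate ranges overlapped between COX4 and COX7, between COX5A and COX13 and between COX12 and COX5B, so those neighbours were not separated. COX4, COX7 and COX8 lay above the median of all ORFs in both replicates, against 47.9% of ORFs. Apart from the COX5 isoforms, the subunits sit in the complex in equal numbers, and the 3' end counts of their mRNAs were not equal.

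**Figure D4:**
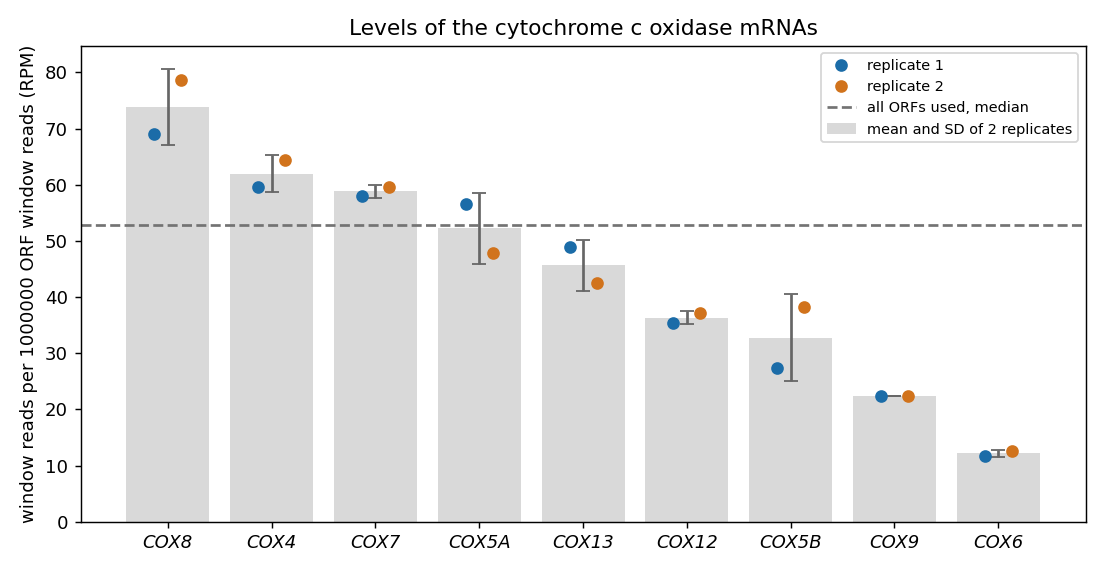
Window reads in RPM (vertical axis) of each COX gene, as the mean of 2 replicates (bars) with the SD (error bars) and both replicates (points). The dashed line is the median of the 4939 ORFs used, 52.9 RPM, and COX8, COX4 and COX7 lie above it in both replicates.

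The form of the 3' ends differed within the family. The share of the most used position ran from 22.8% in COX9 to 58.2% in COX6, with a median of 39.9% against 33.7% over all ORFs. That order turned under other settings, with 30.0% against 34.4% over positions 1 to 300 and 28.8% against 34.7% among genes with at least 1000 reads. The effective number ran from 4.45 in COX6 to 13.7 in COX9, with a median of 9.89 against 8.46. The stretch that holds the central 80% of reads, from the 10th to the 90th percentile, ran from 27.5 nt in COX5A to 231 nt in COX12. Its median was 88.5 nt over the 9 genes and 45.0 nt over all ORFs. Apart from COX9 and COX12, the replicates gave the same mean endpoint to within 3.60 nt, and the median difference of 2.46 nt stood near the 2.03 nt of all ORFs.

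Other genes of respiration were compared by list. Of 34 factors for the assembly or expression of cytochrome c oxidase, 32 had enough reads, and 19 of them ended beyond the median of all ORFs in both replicates. Of all ORFs 48.6% did, which applies to each list below, and 19 of 32 is near that share. Their median endpoint was 137 nt, from PET494, a translational activator, at 47.1 nt to PET111, another such activator, at 245 nt. The structural subunits of the neighbouring complex III were long as well. The 8 of 9 with enough reads all lay beyond the median of all ORFs, with a median of 224 nt. They ran from QCR8, a small subunit, at 127 nt to RIP1, the iron-sulfur protein, at 397 nt, with the most used RIP1 position at the last position of the window.

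For the ATP synthase, 12 of 16 genes lay beyond the median of all ORFs, with a median of 176 nt, from ATP7 at 97.9 nt to ATP17 at 272 nt. For succinate dehydrogenase and cytochrome c, 4 of 5 did, with a median of 186 nt, from SDH3 at 103 nt to SDH2 at 357 nt. CYC1, the main cytochrome c gene, ended at 174 nt, and its isoform CYC7 had 53 and 62 window reads and was not among the genes used. Of 7 regulators of respiratory genes, 6 lay beyond the median, with a median of 285 nt, from MOT3, a hypoxic repressor, at 98.6 nt to HAP4, the activating subunit of the HAP complex, at 359 nt. No difference between these lists was tested.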

How the data were processed

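3' READS was applied to total RNA extracted with hot acidic phenol from 2 biological replicates of JZY65. The submitters' processing notes name Bowtie, while its version, the build and how multiply matching reads were treated were not given in the sources used here.

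Per the file headers, the authors deposited for each feature the reads inside it and in the window of 400 nt after it. These deposited signal values are reads times 1 factor per library, 0.858 and 0.940. Deposited percent values are shares of a gene's own reads, and 400 further deposited columns give each position relative to the gene's highest. Division by the factor gave whole reads (within 0.1) at 99.998% and 99.995% of positions (genes of up to 2000 reads at the peak), and the results use these counts. The 9 genes had 369 positions with reads, and the pooled table equalled the sum of the replicates at all 369. Coordinates are the files' own and equal those of assembly R64 for the 9 genes.

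The read filter was 100 window reads in each of the replicates. Python 3.11.15, numpy 2.4.6, pandas 2.3.3 and scipy 1.17.1 gave means with the SD over 2 replicates, Wilson 95% intervals and limits of 3 counts for a 0. Positions with at least 2% of reads in the mean of the replicates and at most 10 nt apart were joined into sites, a rule set after the profiles were seen. With 1 group no test between groups was possible, and no count model was run. The measures were tested on simulated data. All 9 genes are named, with RPB4, neighbours whose windows or frames meet theirs, CYC1, CYC7 and the shortest and longest gene of each list. The upstream neighbours RIC1 and YHR050W-A were named after their values were seen. Members and lists were chosen with earlier results of these data known. A search for Puf3 motifs was not run, because no genome sequence was used here.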

Additional observations from a re-analysis of the deposited data

How the results depend on the processing

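The count of genes beyond the median of all ORFs stayed at 8 of 9 over positions 1 to 300 or 21 to 400, with no read filter, in the pooled table and in each replicate alone. With at least 1000 window reads, 5 genes remained and all 5 lay beyond it, with 4 of the 5 sharing the most used position. The check for same-strand overlap covered only the features of the series, and COX4 passed it although the dubious frame YGL188C begins in its window. The median endpoint, 228 nt from the replicate means of each gene, was 223 nt over positions 1 to 300 and 258 nt with at least 1000 reads. It was 236 nt without COX5B, the gene that this check removed, and 229.8 to 235 nt when 1 replicate was left out. In the same order the median share of the most used position was 30.0%, 28.8%, 34.4% and 37.6% to 38.6%, and it was 52.4% for reads within 5 nt. Over all ORFs that share was 34.4% over positions 1 to 300 and 34.7% with at least 1000 reads, so the COX median, above that of all ORFs as reported, lay below it in both settings. The effective number was 10.4 in the pooled table and 9.98 to 10.5 in single replicates. The median level was 50.7 RPM without the 10 most read ORFs and 51.3 with ORF reads. The median share of ORF reads was 0.257% to 0.418% in single replicates and 0.155% without reads that also lie in an upstream window. The last 2 settings, and leaving out COX9 with COX12 (6 of 7 beyond the median) or COX4 with COX5B (7 of 7), were chosen after seeing the data. The ratio of COX5A to COX5B was 1.25 to 2.08 in single replicates. With the median position in place of the mean, the endpoints of 7 genes moved by at least the SD of their replicates, and those of 2 did not. For COX6 it went from 163 to 117 nt and for COX12 from 244 to 317 nt. No paired analysis was possible because there is 1 group. The alternatives for the Puf3 motif were not run. Ends beyond 400 nt are not measured, and COX6, with 321 and 315 reads, has the widest counting intervals for the most used position.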
